A study of Mus musculus with 8 samples.

Results

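The metallothionein and antioxidant defence genes described here are 10 genes picked by symbol from a table of 55414 mouse genes: the metallothioneins Mt1, Mt2 and Mt3, the peroxiredoxin Prdx1, the haem oxygenase Hmox1, the quinone reductase Nqo1, the superoxide dismutases Sod1 and Sod2, the thioredoxin reductase Txnrd1 and the glutathione synthesis subunit Gclm. All 10 matched a single identifier, and 5 of them had enough counts to be among the 11353 genes tested. The libraries were made from colon cells of mice aged 4 weeks, with 4 mice and 4 libraries each for WT and Emb knockdown, and both genotypes were stained, sorted and sequenced in the same way. Sorting used antibodies to CD24 and CD56 and gave tubes of about 250 cells, labelled as enteric neurons, the intrinsic nerve cells of the intestine. The sources used here give neither strain and sex, nor the way in which Emb was lowered, nor whether each tube came from a single mouse. The p-values therefore measure only how these libraries spread, and that spread may be technical. Values per library are given in the order of replicates 1 to 4.

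Metallothioneins are small cytosolic proteins whose many cysteines bind zinc and copper. Their genes are switched on by the zinc-sensing transcription factor MTF1 and by stress hormones, and Mt1 and Mt2 lie side by side and are usually induced together, while Mt3 is known mainly from neurons and astrocytes. The antioxidant enzymes are largely targets of the transcription factor NRF2 (gene Nfe2l2), which the adaptor KEAP1 marks for degradation until oxidants or electrophiles modify it, and which competes with BACH factors for the same DNA elements.

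The libraries themselves differed between the genotypes. The WT libraries held 698930 to 954191 counts and the Emb knockdown libraries 2024372 to 2712754, and ribosomal RNA took 5.28% to 14.4% and 31.2% to 45.1% of them, without overlap in either measure. The labelled cell type was only partly borne out by its markers: of 14 neuron marker genes 8 had counts in every library, and Elavl3, an RNA-binding protein of neurons, had the highest mean, at 75.1 to 270 CPM (the count after scaling libraries to a common size by the TMM method). Uchl1 followed at 0 to 326 CPM, while Snap25, Tubb3 and Ret, singled out after their values were seen, stayed at or under 19.5 CPM, with Tubb3 and Ret each at 0 in a WT library. Of the glia markers, Entpd2 had 0 to 949 CPM and Gfap 54.8 to 260.5 CPM. Emb, the targeted gene, had 4, 6, 22 and 16 counts in the WT libraries, against 5, 25, 3 and 5 in those of Emb knockdown. Its log2 fold change of -1.24 ± 0.82 (SE) did not pass the test (edgeR adjusted p = 0.529). The ratio of summed counts, divided by the scaled library sizes, was 0.426 with a counting interval of 0.271 to 0.665. Emb knockdown replicate 2, at 13.3 CPM, lay above WT replicates 1 and 2, at 5.15 and 6.90 CPM. A lowering of Emb therefore did not stand out from the spread between libraries.

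Among the 10 genes Mt1 stood alone in level. Mt1 had 384, 275, 172 and 369 counts in the WT libraries, against 2764, 2187, 3109 and 1437 in those of Emb knockdown. It held 55.3% to 83.1% of all counts of the 10 genes in the WT libraries, against 82.3% to 90.4% in the Emb knockdown libraries, and these shares overlapped. Divided by exon length, the level of Mt1 was 293 ± 145 CPM per kilobase in WT, against 1120 ± 353 in Emb knockdown (SD, n = 4 each). Txnrd1 came next, at 8.59 ± 5.26 and 17.5 ± 11.7 CPM per kilobase. The other 8 genes lay between 0.545 and 6.99 CPM per kilobase in WT, against between 0.895 and 9.05 in Emb knockdown, and from the second place down neighbours in this order differed by less than their spread. Exon length here joins the exons of every annotated transcript, which lowers the value of genes with long alternative transcripts such as Sod2; for Mt1 it covers the whole gene of 1246 bases.

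**Figure D1:**
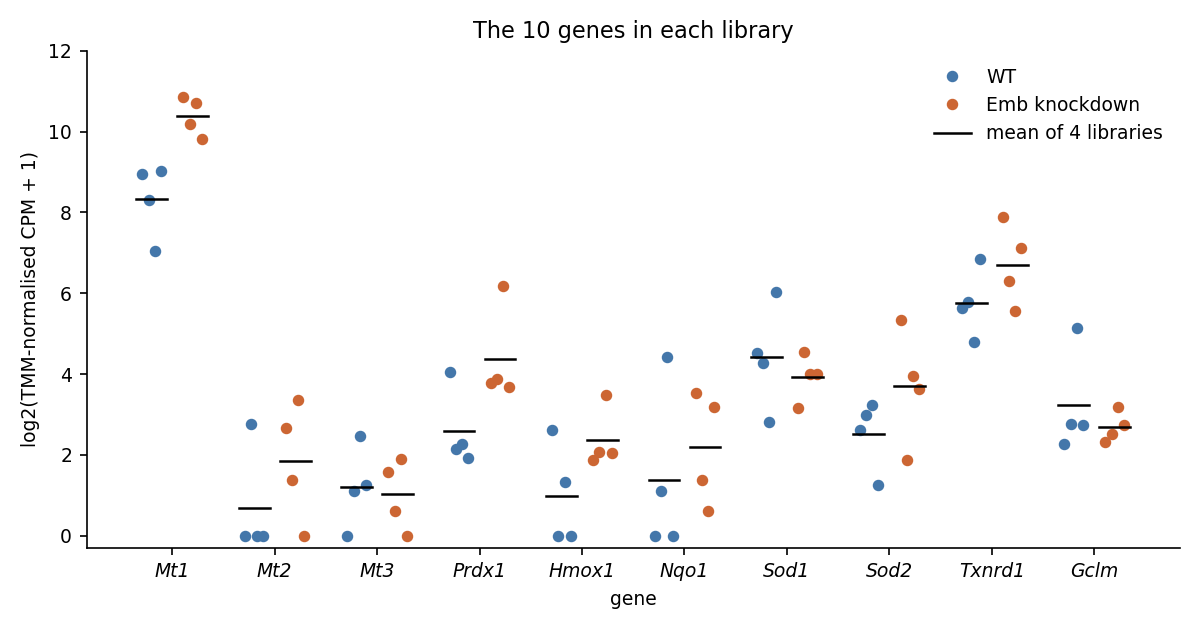
The y axis shows the level of each gene as log2 of TMM-normalised CPM plus 1; each point is a library, blue for WT and orange for Emb knockdown, and the bars are means of 4 libraries. Mt1 is the only gene of the 10 whose groups do not overlap, and Mt2, Mt3, Hmox1 and Nqo1 each have libraries at 0.

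Mt1 (ENSMUSG00000031765, GRCm38 chr8:94179082-94180327, plus strand, protein coding) was higher in all 4 Emb knockdown libraries than in any WT library. Its normalised level was 494, 316, 131 and 519 CPM in the WT libraries, against 1841, 1159, 1680.05 and 900.3 CPM in those of Emb knockdown. WT replicate 3 was the lowest library and Emb knockdown replicate 1 the highest. The means were 365 ± 180 and 1395 ± 440.0 CPM (SD, n = 4 each), a log2 fold change of 1.94 ± 0.68 (SE; 95% interval 0.44 to 3.43). The exact permutation test of this gene alone gave p = 0.0286, the smallest that 70 assignments of 8 libraries allow. Across all genes the edgeR p was 0.0156 and the adjusted p 0.311, so Mt1 did not pass the threshold of 0.05. In tubes of sorted cells, a change in the share of a cell type and a change in RNA per cell cannot be told apart.

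The same held for every gene: by edgeR 0 of 11353 genes passed the adjusted p, which is 0% of those tested, while 1508 had an unadjusted p under 0.05. The DESeq2 Wald test called 749 genes and limma voom called 0. Mt1 was the 1 member among the DESeq2 calls, at a log2 fold change of 1.94 (adjusted p = 0.00853); over all 17 alternatives for Mt1 its log2 fold change ran from 1.30 to 2.58 and its adjusted p from 0.00853 to 0.599. Of the 5 tested members, 2 had an unadjusted p under 0.05 and were higher in Emb knockdown, Mt1 and Prdx1, against 8.64% of all genes tested in that direction, and 0 were lower, against 4.64%. Mt1 was the 1 tested member of 5 whose groups did not overlap and were higher in Emb knockdown, against 4.03% of all genes, and 0 were lower without overlap, against 4.25%. Prdx1 was tested only through its Emb knockdown libraries, since it met the low-count filter in 1 WT library and 4 of Emb knockdown. Its place in the count thus followed partly from the group where it was high. With 5 genes tested, neither count can be read as more than that background.

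**Figure D2:**
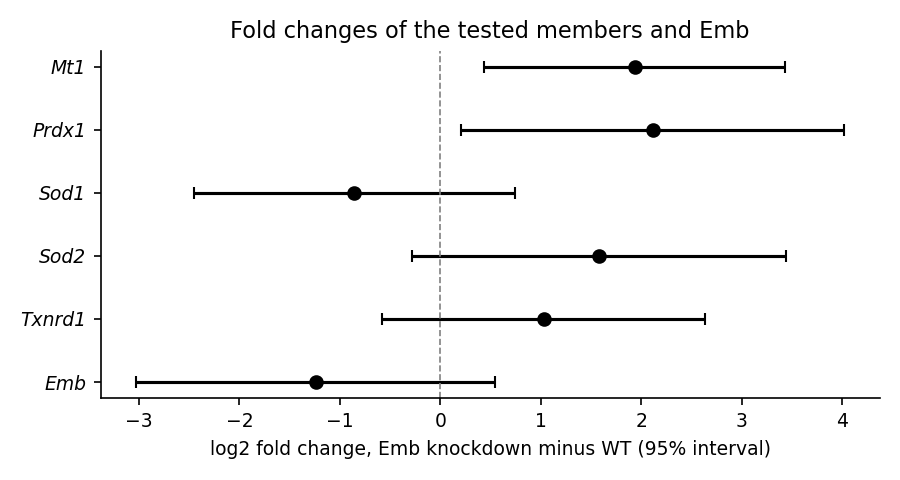
Points are log2 fold changes, Emb knockdown minus WT, and bars are 95% intervals from the edgeR fit, for the 5 members that could be tested and for Emb. The intervals of Mt1 (0.44 to 3.43) and Prdx1 (0.21 to 4.02) lie above 0, and those of the other genes shown include 0. Prdx1 was tested only through its Emb knockdown libraries.

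The neighbouring metallothionein genes were almost silent. Mt2 (ENSMUSG00000031762, GRCm38 chr8:94172664-94173568, plus strand), which ends 5513 bases before Mt1 begins, had 0, 5, 0 and 0 counts in the WT libraries, against 8, 3, 17 and 0 in those of Emb knockdown. A count of 0 allows up to 3 counts, or 2.28 to 4.22 CPM in the 3 WT libraries at 0 and 1.88 CPM in Emb knockdown replicate 4. Summed over libraries and divided by the scaled library sizes, Mt2 was 3.01 times as high in Emb knockdown, with an exact 95% interval of 1.15 to 9.98 that covers counting error only, and its levels overlapped between the groups (exact permutation p = 0.371). Of the counts of Mt1 and Mt2 together, Mt1 held at least 98.2% in every library; the exact (Clopper-Pearson) interval of that lowest share, in WT replicate 2, was 95.9% to 99.4%. The pair known for joint induction was represented in these libraries by Mt1.

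Mt3 and Mt4, farther out in the same cluster, had similarly few counts. Mt3 (ENSMUSG00000031760, GRCm38 chr8:94152607-94154146, plus strand) had 0, 1, 6 and 1 counts in the WT libraries, against 3, 1, 5 and 0 in those of Emb knockdown, and the groups overlapped. The ratio of its summed counts was 0.605, with a counting interval of 0.207 to 1.80. Mt4, the metallothionein of stratified epithelia, had 5 counts in WT and 0 in Emb knockdown. Gm45774, annotated antisense to Mt2, had 9 and 26 counts, and without a stated strand setting its reads cannot be told apart from those of Mt2 where the 2 genes overlap. Nup93, the next gene beyond Mt1 with over 5 counts in all, had 89 and 131 counts, so the high counts of the region lay on Mt1 itself.

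**Figure D3:**
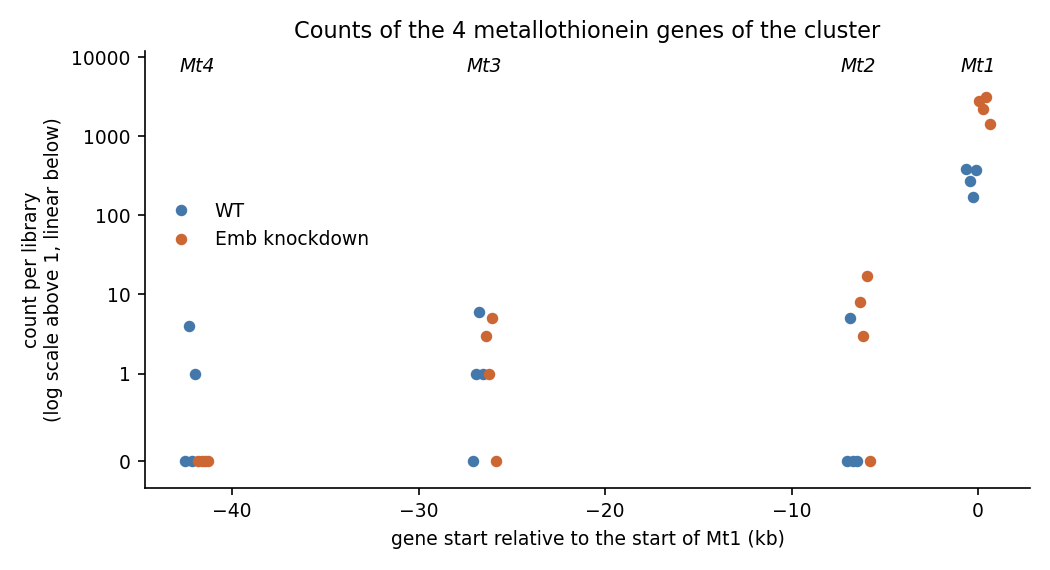
The x axis is the distance of each gene's start from the start of Mt1 in kilobases, and the y axis is the count per library, on a log scale above 1 and linear below; blue points are WT and orange points Emb knockdown libraries. Mt1 has 172 to 3109 counts per library, while Mt2, Mt3 and Mt4 have 0 to 17.

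The coding sequences show whether reads of the paralogs could have been assigned to each other, and they are given for that reason. They are from GENCODE M21 transcripts, within chr8:94179311-94180193 for Mt1 and chr8:94172848-94173427 for Mt2 (GRCm38, plus strand, introns removed), and capitals mark the bases at which Mt1 and Mt2 differ.
Mt1: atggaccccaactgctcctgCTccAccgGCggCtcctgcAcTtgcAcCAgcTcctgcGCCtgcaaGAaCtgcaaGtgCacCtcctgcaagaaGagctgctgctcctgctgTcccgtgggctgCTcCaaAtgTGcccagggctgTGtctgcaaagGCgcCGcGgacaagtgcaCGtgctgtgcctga
Mt2: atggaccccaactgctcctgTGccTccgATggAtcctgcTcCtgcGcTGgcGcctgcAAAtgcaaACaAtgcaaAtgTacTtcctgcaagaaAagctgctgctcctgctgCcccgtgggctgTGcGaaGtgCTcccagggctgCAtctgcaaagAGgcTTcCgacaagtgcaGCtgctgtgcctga
Both are 186 bases long, and both hold 20 cysteine codons among 61 sense codons. They differ at 38 bases, which leaves 79.6% identity, and the longest run of bases shared by their full transcripts is 20. Mt1 and Mt3 share a run of at most 27 bases. Reads longer than these runs hold at least 1 difference; the sources used here give neither the read length nor the handling of reads that match several genes.

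The promoters of Mt1 and Mt2 are shown because the genes differed so much in level while sharing a known regulator. Windows of 240 bases that end before the annotated transcript starts were taken from RefSeq (GRCm38.p6), at chr8:94178839-94179078 for Mt1 and chr8:94172368-94172607 for Mt2, both on the plus strand. Capitals mark matches to the core of the metal response element bound by MTF1, searched as TGCACNC and TGCGCNC on both strands.
Mt1: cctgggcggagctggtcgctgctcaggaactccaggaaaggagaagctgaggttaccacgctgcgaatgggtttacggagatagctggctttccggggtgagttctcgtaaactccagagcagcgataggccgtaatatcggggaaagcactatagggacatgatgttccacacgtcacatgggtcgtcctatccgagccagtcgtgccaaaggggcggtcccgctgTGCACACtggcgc
Mt2: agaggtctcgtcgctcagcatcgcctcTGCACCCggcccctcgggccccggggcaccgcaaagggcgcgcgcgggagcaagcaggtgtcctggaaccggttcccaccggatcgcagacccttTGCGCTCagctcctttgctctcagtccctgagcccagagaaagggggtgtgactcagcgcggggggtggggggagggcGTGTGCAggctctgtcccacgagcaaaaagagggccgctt
The Mt1 window held 1 match and the Mt2 window 3, while the Mt3 window held 0. The bases between the windows and the coding starts, at 94179311 for Mt1 and 94172848 for Mt2, were not searched. These counts therefore do not give the number of metal response elements of either gene. Of 32851 RefSeq promoter windows of this length, 20.4% held at least 1 match and 4.78% at least 2. Promoter windows were found for 9 of the 10 members, all but Hmox1. The core of the antioxidant response element bound by NRF2, searched as TGACNNNGC on both strands, had a match in a window of Gclm, Mt2, Prdx1, Sod1 and Txnrd1, and in 9.67% of all windows. A match is a string of letters and not a tested site.

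Txnrd1, which encodes the cytosolic selenoenzyme that keeps thioredoxin reduced, was the best-covered antioxidant enzyme. Txnrd1 (ENSMUSG00000020250, GRCm38 chr10:82833951-82897712, plus strand) had 48.9, 54.0, 26.6 and 114 CPM in the WT libraries, against 235, 77.4, 45.9 and 138 CPM in those of Emb knockdown. The groups overlapped, since WT replicate 4 lay above 2 of the Emb knockdown libraries. Its log2 fold change of 1.03 ± 0.73 (SE), with a 95% interval of -0.58 to 2.63, did not pass (edgeR adjusted p = 0.562). It was 0.54 without Emb knockdown replicate 1, 1.60 without WT replicate 4 and 0.26 with library totals alone.

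Prdx1, a cytosolic peroxidase that removes hydrogen peroxide with electrons from thioredoxin, had a library in each genotype that stood apart from the rest. Prdx1 (ENSMUSG00000028691, GRCm38 chr4:116685544-116700822, plus strand) had 15.4, 3.45, 3.804 and 2.81 CPM in the WT libraries, against 12.7, 13.8, 71.9 and 11.9 CPM in those of Emb knockdown. WT replicate 1 lay above 3 of the 4 Emb knockdown libraries, and Emb knockdown replicate 3 stood far above the rest. The log2 fold change was 2.11 ± 0.87 (SE; edgeR adjusted p = 0.334, unadjusted under 0.05) and 3.05 without WT replicate 1. Prdx1 met the low-count filter in 1 WT and 4 Emb knockdown libraries, and without any single Emb knockdown library it could no longer be tested.

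The 2 intracellular superoxide dismutases, which turn superoxide into hydrogen peroxide, leaned in opposite directions without passing the test. Sod1 (ENSMUSG00000022982, GRCm38 chr16:90220754-90226329, plus strand), the copper and zinc enzyme of the cytosol, had 21.9, 18.4, 6.09 and 64.6 CPM in the WT libraries, against 7.99, 22.3, 15.1 and 15.04 CPM in those of Emb knockdown. Its log2 fold change of -0.86 ± 0.73 (SE; edgeR adjusted p = 0.634) rested on WT replicate 4, without which it was 0.05. Sod2 (ENSMUSG00000006818, GRCm38 chr17:13006846-13040063, plus strand), the manganese enzyme of mitochondria, had 5.15, 6.90, 8.37 and 1.41 CPM in the WT libraries, against 39.3, 2.65, 14.6 and 11.3 CPM in those of Emb knockdown. Emb knockdown replicate 2 lay below 3 WT libraries, and the log2 fold change was 1.58 ± 0.85 (SE, edgeR adjusted p = 0.438). Sod2 met the low-count filter in 2 WT and 3 Emb knockdown libraries. Scaf4, on the opposite strand, overlaps the end of Sod1 and had 30 counts in WT and 226 in Emb knockdown, so part of the reads may belong to either gene.

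The textbook NRF2 targets Hmox1, Nqo1 and Gclm were below the low-count filter. Hmox1 (GRCm38 chr8:75093621-75100589, plus strand), which breaks down haem, had 4, 0, 2 and 0 counts in the WT libraries, against 4, 6, 19 and 5 in those of Emb knockdown. The ratio of its summed counts, divided by the scaled library sizes, was 3.05 with a counting interval of 1.26 to 8.88, and 19 of its 34 counts in Emb knockdown came from replicate 3. The levels overlapped, since WT replicate 1 at 5.15 CPM lay above 3 Emb knockdown libraries (exact permutation p = 0.200).

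Nqo1 and Gclm had their highest level in the same WT library. Nqo1 (GRCm38 chr8:107388225-107403206, minus strand), a reductase of quinones, had 0, 1, 27 and 0 counts in the WT libraries, against 16, 3, 1 and 13 in those of Emb knockdown. Gclm (GRCm38 chr3:122245557-122270732, plus strand), the modifier subunit of the enzyme that limits glutathione synthesis, had 3, 5, 45 and 4 counts in the WT libraries, against 6, 9, 15 and 9 in those of Emb knockdown. WT replicate 3 held 27 of the 28 WT counts of Nqo1 and 45 of the 57 WT counts of Gclm. With Gclm tested without a single WT library, its log2 fold change was -1.38 to -1.32 without replicates 1, 2 or 4 and 0.20 without replicate 3 (edgeR adjusted p = 0.951). The ratios of summed counts were 0.633 for Nqo1 and 0.368 for Gclm, and for each gene the groups overlapped. Gm17494, on the strand opposite Gclm, had 167 and 252 counts.

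A measure of how far each gene stood above the floor of these libraries came from olfactory, vomeronasal and trace amine receptor genes, which colon cells are not known to use broadly. Per exonic kilobase, the median protein-coding gene lay at 0.930 ± 0.19 times the receptor genes in WT, against 1.57 ± 0.14 in Emb knockdown (SD, n = 4 each). Mt1 lay at 68.7 to 277 times the receptor genes in the WT libraries, against 684 to 1755 in those of Emb knockdown. Txnrd1 lay at 2.46 to 10.7 and 5.26 to 39.3 times, and Sod1 at 1.00 to 10.8 and 2.39 to 5.85 times. Prdx1 lay at 0.615 to 2.98 times in WT, against 3.70 to 19.2 in Emb knockdown. In CPM the groups of Prdx1 overlapped. The median gene was also higher on the receptor scale in Emb knockdown, at 1.42 to 1.76 times against 0.715 to 1.17 in WT. The lack of overlap on this scale is thus not particular to Prdx1. Mt3, Hmox1, Sod2 and Gclm had means under 3 times in both genotypes, so their values lie close to that of the median gene, and differences in them rest on few reads.

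Other genes of the pathways were read from lists chosen with earlier results of these data known. Regulators of NRF2 and BACH had the highest median of the redox lists, and 10 of their 11 genes could be tested: 9 were higher and 1 lower in Emb knockdown, with a median log2 fold change of 1.72 against 0.04 for all genes tested. Of the 10, 5 had an unadjusted p under 0.05, against 8.64% of all genes, and 0 passed the adjusted p. Nfe2l2 itself had 2.57 to 13.7 CPM in WT and 6.27 to 949 CPM in Emb knockdown (log2 fold change 5.12 ± 1.52 SE, edgeR adjusted p = 0.295). The repressor Bach2 had 8.43 to 21.3 and 18.03 to 2078 CPM, and Keap1 11.2 to 24.4 and 8.77 to 324 CPM. All 3 were highest in Emb knockdown replicate 1, without which the log2 fold changes were 2.52 for Nfe2l2, 0.91 for Bach2 and 0.39 for Keap1, and the list median 0.66. The estimates of Bach2 and Keap1 rested mainly on that library. Nfe2l2 kept part of its estimate without it (edgeR adjusted p = 0.407), and its medians were 7.09 CPM in WT and 64.3 CPM in Emb knockdown. Mafg, a small MAF protein that pairs with NRF2 and BACH on DNA, differed without overlap, at 6.85 to 43.7 CPM in WT and 68.3 to 151 CPM in Emb knockdown (2.11 ± 0.70 SE, adjusted p = 0.304).

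The genes of metal sensing and transport, which bear on the metallothioneins, showed no common direction: 11 of 19 tested were higher and 8 lower, with a median log2 fold change of 0.33. An unadjusted p under 0.05 was found for 2 of the higher genes and 1 of the lower, that is 3 of 19 against 13.3% of all genes tested. Mtf1, which encodes the zinc sensor that drives Mt1, was lower in Emb knockdown while Mt1 was higher: Mtf1 had 39.6 to 70.1 CPM in WT and 15.04 to 24.6 CPM in Emb knockdown, without overlap (log2 fold change -1.28 ± 0.52 SE, edgeR adjusted p = 0.333, unadjusted under 0.05). The zinc importer gene Slc39a14 had 2.81 to 14.5 and 17.5 to 136 CPM, also without overlap (3.03 ± 0.84 SE, adjusted p = 0.294). Slc39a1, another zinc importer, had 3.804 to 8.43 and 5.64 to 135 CPM (2.55 ± 1.04 SE), with Emb knockdown replicate 1 far above the rest. It is 1 of the 2 higher genes counted above, and could be tested only while all 4 Emb knockdown libraries were kept. Slc30a10, an exporter of manganese, had 3.804 to 9.20 and 6.66 to 29.2 CPM (1.30 ± 0.67 SE). The median of this list was -0.41 with library totals alone, where that of all genes was -0.67. Scaled by TMM without ribosomal RNA genes it was 0.01, over the 17 genes then tested. Over single libraries left out the median was lowest at -0.39, when Emb knockdown replicate 4 was dropped and 13 genes remained tested. The highest was 0.71, when WT replicate 4 was dropped. Dropping Emb knockdown replicates 1 and 2 in turn gave 0.02 over 15 genes and -0.13 over 14. The shifts after dropping Emb knockdown libraries therefore mix the effect of a library with that of the genes left.

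**Figure D4:**
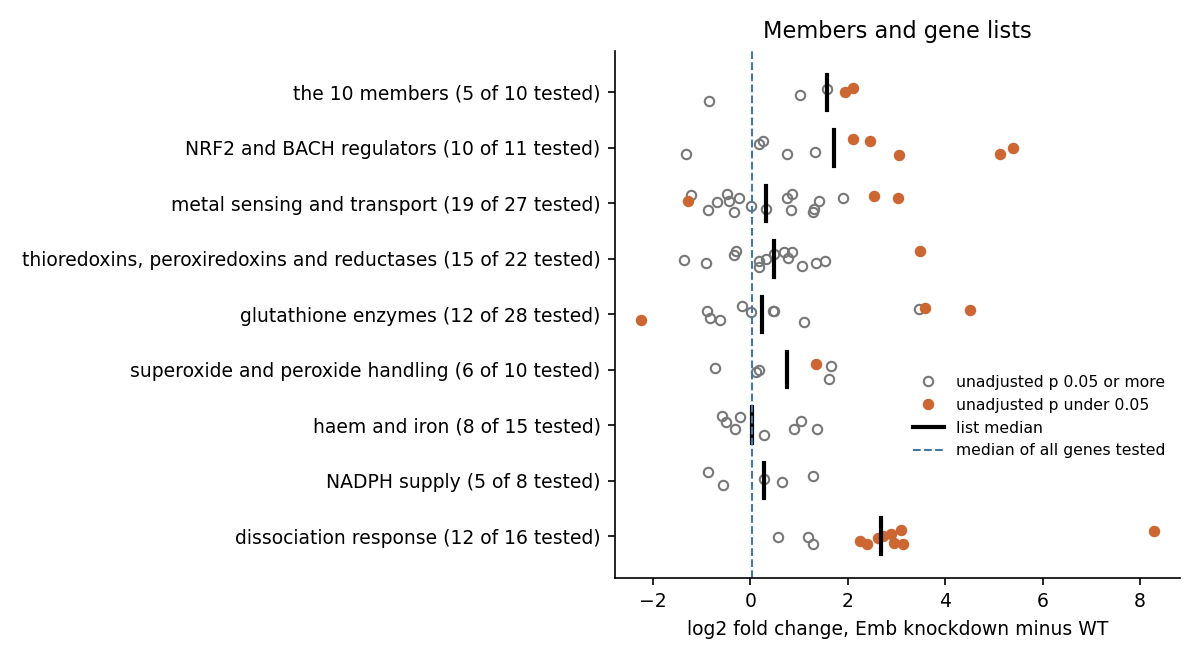
Each point is a tested gene, placed by its log2 fold change, Emb knockdown minus WT; filled points have an unadjusted p under 0.05, black bars are list medians and the dashed line is the median of all genes tested (0.04). The dissociation response and the NRF2 and BACH regulators have the highest medians (2.67 and 1.72), and the haem and iron list lies at 0.04.

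The enzymes that work beside the members spread around small medians. Thioredoxins, peroxiredoxins and reductases had 11 genes higher and 4 lower of 15 tested (median log2 fold change 0.49), and the lowest p belonged to Glrx, a glutaredoxin that reduces glutathionylated proteins (3.48 ± 1.39 SE, and 0.88 without Emb knockdown replicate 2, which held 626 CPM). Sesn1, Prdx6 and Sesn3 followed at 1.05, 1.53 and 1.36, with Prdx6 at 0.87 without Emb knockdown replicate 4 and Sesn3 at 0.73 without Emb knockdown replicate 2. Glutathione enzymes had 7 higher and 5 lower of 12 tested (median 0.24). Gstm1 and Gstt1, glutathione transferases, stood at 4.51 and 3.59 through Emb knockdown replicate 2, which held 720.5 and 336 CPM of them. Without it Gstm1 was at 1.71. The other Emb knockdown libraries held 1.33 to 10.7 CPM of Gstt1, against 4.22 to 11.6 CPM in WT. Gsto1, another transferase, was lower without overlap, at 13.7 to 19.3 CPM in WT and 0 to 5.64 CPM in Emb knockdown (-2.25 ± 0.83 SE, edgeR adjusted p = 0.314). Gpx2, a glutathione peroxidase of gut epithelium, had 0 to 155 and 12.7 to 1242 CPM; its estimate was 3.45, and 7.82 without WT replicate 3.

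Superoxide and peroxide handling had 5 genes higher and 1 lower of 6 tested (median log2 fold change 0.76): Pon2 was at 1.34 ± 0.60 (SE, edgeR adjusted p = 0.367), Oxr1 at 1.62 (2.91 without WT replicate 3) and the phagocyte oxidase gene Cybb at 1.66 (0.43 without Emb knockdown replicate 1, 2.91 without WT replicate 1), with the extracellular dismutase Sod3 at -0.73. Haem and iron genes had 4 higher and 4 lower of 8 tested (median 0.04), led by Alas1, the first enzyme of haem synthesis, at 1.37 ± 0.63 (adjusted p = 0.378), with Ireb2, Blvrb and Fech at 0.90, 1.04 and -0.58; Ireb2 was at 0.26 without Emb knockdown replicate 2 and Fech at 0.10 without WT replicate 1. The NADPH supply genes had 3 higher and 2 lower of 5 tested (median 0.28), with Taldo1, Me1, Idh1 and Pgd at 1.29, -0.88, -0.56 and 0.66; without WT replicate 1 Taldo1 was at 2.88 and Pgd at 1.30. With single libraries dropped, the NADPH supply median ran from -0.14 to 1.30, its lowest when Emb knockdown replicate 4 was dropped and its highest when WT replicate 1 was. The haem and iron median ran from -0.06, when Emb knockdown replicate 4 was dropped, to 0.40, when WT replicate 4 was. The superoxide handling median was 0.43 when Emb knockdown replicate 1 was dropped and 1.53 when replicate 4 was. That of glutathione enzymes ran from 0.22 to 0.60 and that of thioredoxins from 0.42 to 0.65. Dropping an Emb knockdown library could also leave fewer genes tested. Without replicate 4 these were 4 for NADPH supply, where Taldo1 was lost, 7 for haem and iron and 5 for superoxide handling. They were 11 for glutathione enzymes and 10 for thioredoxins. The ranges thus mix the effect of a library with that of the genes left. Beside Glrx, Gstm1, Gstt1, Gsto1 and Pon2, 0 genes of these 5 lists had an unadjusted p under 0.05, a share no higher than the 13.3% of all genes tested, and 0 passed the adjusted p.

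The 3 genes whose pattern over the 8 libraries was most like that of Mt1 were Tap1, Adgre1 and C1qa. Likeness was the root mean square difference of log2 CPM after each gene was centred on its own mean, over 2099 tested genes with a mean log2 CPM of at least 5. It was smallest for Tap1 (27.4 to 92.6 and 126 to 263 CPM), a peptide transporter of antigen presentation, at 0.285, Adgre1, the macrophage marker F4/80, at 0.322, and C1qa, a complement chain made by macrophages, at 0.357, against a median of 1.38 over the genes compared. Adgre1 had 23.6 to 103 CPM in WT and 142 to 376 CPM in Emb knockdown, and C1qa 510.4 to 2327 and 2812 to 5233 CPM, without overlap in either gene. All 4 genes were lowest in WT replicate 3. Since the 3 genes were picked for likeness to Mt1 over these same libraries, the shared low and the lack of overlap follow largely from that choice. For Hmox1, with its few counts, the closest of 10386 genes were Sorcs3, Gpr45 and Ctso at 0.293, 0.342 and 0.377.

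**Figure D5:**
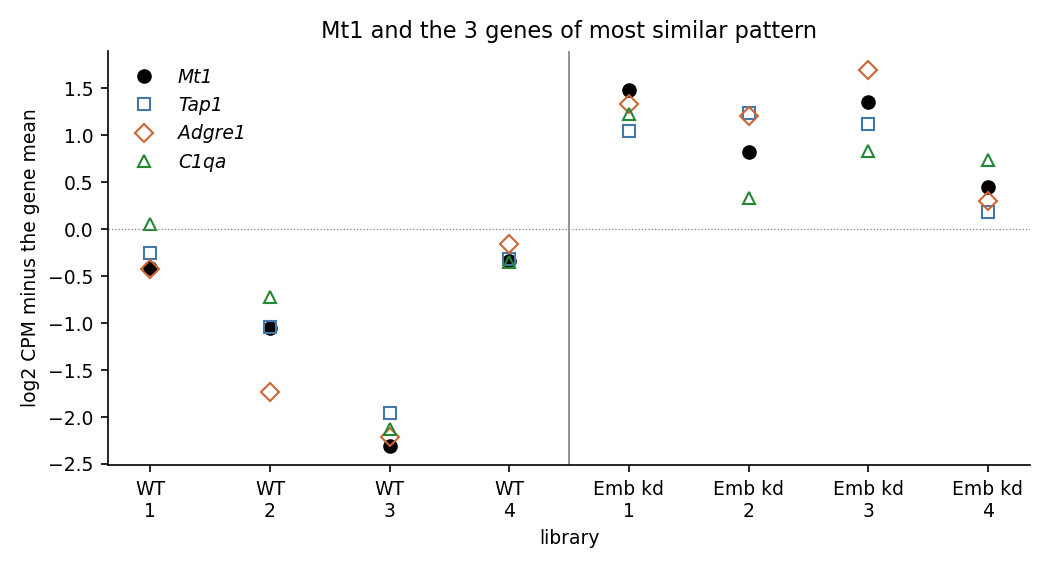
The y axis is log2 CPM minus the mean of the gene over the 8 libraries on the x axis, 4 WT to the left and 4 Emb knockdown to the right of the line. Mt1 (filled circles), Tap1, Adgre1 and C1qa are all lowest in WT replicate 3, and each is higher in every Emb knockdown library than in any WT library. The latter 3 were picked for their likeness to Mt1 over these libraries.

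Beside Mt1, the summed levels of 2 gene lists differed between the genotypes without overlap, though neither passed after adjustment. The summed level of 12 macrophage markers was 1534 to 4072 CPM in WT and 4262 to 6825 CPM in Emb knockdown, with 11 of the 12 above 0 in every library (exact permutation p = 0.0286; 0.0643 adjusted over 18 measures of the libraries). C1qa, Cx3cr1 and Mrc1 were the most abundant of them. C1qa made up the largest part of the sum in Emb knockdown, at 2812 to 5233 CPM, against 510.4 to 2327 CPM in WT. Cx3cr1 went the other way, at 894 to 1539 CPM in WT and 7.02 to 682 CPM in Emb knockdown. Of the 8 markers tested 7 were higher and 1 lower, against 51.6% higher of all genes tested, with Cd68 at a log2 fold change of 0.01. Cd14 and Cd163 reached 85.7 and 26.7 CPM in WT, against at most 6.00 and 8.14 CPM in Emb knockdown. The summed level of 16 genes of the dissociation response, which cells switch on during enzymatic separation, was 1315 to 6505 CPM in WT and 8624 to 31523 CPM in Emb knockdown (exact permutation p = 0.0286, adjusted 0.0643). All 12 of its tested genes were higher and 9 had an unadjusted p under 0.05, against 8.64% of all genes tested in that direction, and 0 passed the adjusted p. Both lists were chosen with earlier results of these data known, so their counts and the p-values of their sums are a description and not a test. In the dissociation response Nr4a1, Jun, Dusp1 and Fos had the lowest p, at log2 fold changes of 8.29, 3.08, 2.95 and 3.14. Nr4a1 had 0 to 5.15 CPM in WT, near the floor, and 172 to 1552 CPM in Emb knockdown. It met the low-count filter only through Emb knockdown libraries, and its fold change rests on few WT reads.

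The sums of 6 further marker lists overlapped between the genotypes. The sum of 14 neuron markers was 271 to 496 CPM in WT, against 231 to 534 CPM in Emb knockdown. Epithelium markers, led by Lgals4, Muc2 and Tff3, summed to 298 to 554 and 420.4 to 557 CPM. Fibroblast and smooth muscle markers, led by Col1a1, Col1a2 and Myh11, summed to 122 to 307 and 304 to 564 CPM. Endothelium markers, led by Pecam1, Flt1 and Cdh5, summed to 569 to 2034 and 236 to 1431 CPM. Lymphocyte markers (34.5 to 56.3 and 55.1 to 562 CPM, Jchain highest, then Cd3e and Cd3g) and red cell markers (0 to 582 and 0.530 to 10.7 CPM, Hbb-bs highest, then Alas2 and Hba-a1) were low in most libraries. The part of macrophage RNA, dissociation response or ribosomal RNA share in the level of Mt1 was not tested.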

How the data were processed

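RNA of sorted mouse colon cells was sequenced from Smart-seq libraries, per the labels' protocols, in 4 WT and 4 Emb knockdown libraries. The authors deposited whole-number counts per gene, not normalized; cutadapt and build mm10 are named in the submitters' processing notes, while aligner, counter, annotation release and strand setting were not given in the sources used here. Groups came from the sample titles. Coordinates and exon lengths came from GENCODE M21 (GRCm38, the assembly of mm10), where 52133 of 55414 identifiers were found.

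Genes were filtered with filterByExpr (minimum count 10, minimum total 15), scaled by TMM and tested with edgeR 4.0.16 (R 4.3.3) by robust quasi-likelihood with group as the only term; p-values were adjusted by Benjamini-Hochberg over 11353 genes with a threshold of 0.05. The scaled library sizes count the genes kept by the filter. DESeq2 1.42.0 and limma 3.58.1 were alternatives. log2 CPM used a prior count of 2. Single values were compared by exact two-sided permutation tests. Intervals and limits cover counting error only, since PCR copies were not marked by molecular identifiers. On simulated counts with 200 of 11353 genes changed 4-fold between Emb knockdown and WT, 62.5% reached an unadjusted p below 0.05 and 0% the adjusted threshold; for 16-fold changes 96.5% and 4.5% did so.

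The members and the gene lists (229 genes, 228 with a single identifier; Nnt was left out) were chosen with earlier results of these data known. Beside the members and Emb, up to 4 tested genes of each pathway list were named by smallest unadjusted p, up to 3 of each marker list by highest mean CPM, and 3 genes of most similar pattern for Mt1 and Hmox1. Neuron, macrophage, epithelium and other marker lists were summed as CPM; some marker results are not reported here.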

Additional observations from a re-analysis of the deposited data

Results flagged for a closer look

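In groups of 4 libraries, a value was marked where its gap to the nearest other library was too wide a part of the range of the group by Dixon's 95% critical value. For independent, normally distributed values chance marks about 1 in 20 groups, and here 8 of 32 were marked. Low counts and overlapping sums of members depart from that setting, so the share marked is a description and not a test. Mt2 was at 5.75 CPM in WT replicate 2 and at 0 in the other WT libraries. Prdx1 was at 15.4 CPM in WT replicate 1, against 2.81 to 3.804 in the others, and at 71.9 CPM in Emb knockdown replicate 3, against 11.9 to 13.8. The same Emb knockdown replicate 3 held 10.3 CPM of Hmox1, against 2.66 to 3.18 in the others. WT replicate 3 held 20.5 CPM of Nqo1, against 0 to 1.15, and 34.2 CPM of Gclm, against 3.86 to 5.75. Emb was at 13.3 CPM in Emb knockdown replicate 2, against 1.62 to 3.33 in the others. The 9 members other than Mt1 summed to 190 CPM in WT replicate 4, against 96.6 to 106 in the other WT libraries; Sod1 (64.6 CPM) and Txnrd1 (114 CPM) made up most of it. Mt1 was marked in neither genotype.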

How the results depend on the processing

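Mt1 stayed higher in Emb knockdown under all 17 alternatives run. With library totals alone 2 genes were called, with no low-count filter 910 (725 higher, 185 lower) and by the DESeq2 Wald test 749 (526 higher, 223 lower), against 0; DESeq2 called 1 member, Mt1. The median log2 fold change of the tested members, 1.58, was 0.72 with library totals alone, 2.28 when scaled to the receptor genes, 0.98 with limma voom and 0.92, over 3 members, after thinning the counts outside ribosomal RNA to the lowest library, an alternative chosen after seeing the data. Leaving out single libraries gave 0.54 (without Emb knockdown replicate 1, when Prdx1 and Sod2 could not be tested) to 1.78. Sod1 ran from -1.15 to 0.05 (0.049 without WT replicate 4) over single libraries left out. The median of all genes was -0.67 with library totals alone and 0.64 when scaled to the receptor genes, and among genes with an unadjusted p under 0.05, 375 of 2079 and 2060 of 2201 were higher, against 981 of 1508. Replicate numbers are shared between the genotypes, but deviations of same-numbered libraries correlated at 0.011 to 0.034 over genes, and 2 of 4 WT libraries correlated best with their own number. With a replicate block Mt1 was at 2.04 (edgeR adjusted p = 0.599), the members' median at 1.28, and 918 genes had an unadjusted p under 0.05 with 0 called. Depth limits Mt2, Mt3, Hmox1, Nqo1 and Gclm, which had 5 to 57 counts summed over WT. It also limits Prdx1 and Sod2, which were tested but had 22 counts each summed over WT.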
